A study of Homo sapiens with 23 samples.

Results

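The zinc finger genes of chromosome 19 were followed in a pair of acute myeloid leukemia (AML) cell lines treated with the peptide CIGB-300. A gene was taken where its probe set lies on chromosome 19 by its identifier and carries a single symbol that is ZNF with a number, or ZFP14, ZFP28, ZFP30 or ZFP82. This gave 229 genes of the 17687 genes that have a probe set of their own. Each of the 229 has 1 such probe set, and all were matched through their Entrez identifiers to protein coding genes of chromosome 19 in RefSeq. No expression value enters this rule, but the genes were selected on earlier results of these arrays, namely their direction over the 4 comparisons and with culture time, so counts and medians over them are descriptions and carry no test.

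Most of these genes encode Krüppel-type C2H2 zinc finger proteins, and a majority of those carry a KRAB domain. The fingers bind DNA, in many cases within transposable elements, and the KRAB domain recruits the corepressor TRIM28, which brings the histone methyltransferase SETDB1 and heterochromatin protein 1 to the bound site. The genes arose by repeated duplication and lie in clusters along chromosome 19, so that neighbors resemble each other in sequence. Whether probes of one gene also bound RNA of a close relative was not tested.

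HL-60 and OCI-AML3, both grown from human AML, received 40 µM CIGB-300 or were left untreated for 30 min or 3 h, and their RNA was hybridized to Clariom S HT arrays. CIGB-300 was designed to block the acceptor sites of substrates of the protein kinase CK2, and it also binds the catalytic subunit CK2α. The 8 groups of cell line, treatment and time held 3 arrays each, except untreated OCI-AML3 at 30 min with 2, because the authors removed replicate 1 of that group. The labels speak of biological replicates of 1 line each and do not say whether the cultures were separate, so a p-value measures only the spread between these samples.

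For untreated OCI-AML3 at the later time, the sample titles give 30 h where the time label gives 3 h. The label was followed, and every comparison with these 3 arrays rests on it. The values are log2 signals normalized by the authors. Median signals over all probe sets were 5.38 to 5.44 on HL-60 arrays and 5.52 to 5.60 on OCI-AML3 arrays, and within a group a member varied with a median SD of 0.143 to 0.204. Detection above background was not tested, and the number of arrays limits the precision. MPO, myeloperoxidase, had log2 values of 13.06 to 13.11 in untreated HL-60 and 5.29 to 6.60 in untreated OCI-AML3. MEIS1, a homeobox gene of NPM1-mutated AML, had 3.07 to 3.94 in untreated HL-60 and 7.38 to 8.06 in untreated OCI-AML3. SPI1, a myeloid transcription factor, had 10.81 to 11.05 in untreated HL-60 and 11.05 to 11.29 in untreated OCI-AML3. The B cell gene MS4A1 had 2.45 to 2.85 in untreated HL-60 and 2.53 to 3.31 in untreated OCI-AML3, far below SPI1. Not all markers looked up are printed, and some went against the lists. CDKN2A, given by the authors as mutated in HL-60, had 8.20 to 8.65 there and 7.27 to 7.64 in untreated OCI-AML3. Of genes of other cell types, CD3E had 4.38 to 5.43 in untreated HL-60. COL1A1 had 5.24 to 5.58 in untreated OCI-AML3, which overlaps MPO in that line.

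The promoters of the genes were searched for short motifs. RefSeq promoters of GRCh38.p14, from 250 bases before to 50 bases after the start of a gene, were given for 199 of the 229 genes. CCGGAAG, the core bound by ETS family factors, was found on either strand in 86 of them (43.2%), against 10.7% of all 27305 promoters. Promoters of other chromosome 19 genes held it in 13.2%, and those of ZNF genes on other chromosomes in 37.3%. By tertile of signal over the arrays, 18.5% of the low, 45.1% of the middle and 53.8% of the high members held it. GGGCGG, the GC box, was present in 136 members (68.3%), against 44.6% of all promoters and 66.5% of those of other chromosome 19 genes. ZNF genes on other chromosomes held it in 60%. By tertile its order was the opposite, with 81.5% of the low, 68.4% of the middle and 59% of the high members. A match describes letters and is no evidence of binding. The promoters of 5 members on which the results turn are printed with matches of both motifs in capitals, and CTTCCGG is CCGGAAG on the other strand. ZNF829 (chr19:36916242-36916541, minus strand) and ZNF814 (chr19:57888988-57889287, minus strand) had the highest fitted fold changes of HL-60 over OCI-AML3.
ZNF829: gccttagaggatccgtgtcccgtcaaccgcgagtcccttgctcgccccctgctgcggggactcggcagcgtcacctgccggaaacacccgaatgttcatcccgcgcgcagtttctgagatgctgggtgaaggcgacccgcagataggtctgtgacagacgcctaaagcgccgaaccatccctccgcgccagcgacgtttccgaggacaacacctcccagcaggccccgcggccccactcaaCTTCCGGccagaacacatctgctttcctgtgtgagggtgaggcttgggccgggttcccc
ZNF814: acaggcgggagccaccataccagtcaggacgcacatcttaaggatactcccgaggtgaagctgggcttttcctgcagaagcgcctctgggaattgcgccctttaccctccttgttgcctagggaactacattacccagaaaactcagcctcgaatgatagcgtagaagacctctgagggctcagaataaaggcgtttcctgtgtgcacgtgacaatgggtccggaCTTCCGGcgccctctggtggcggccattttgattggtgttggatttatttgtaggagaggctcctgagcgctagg
ZNF85 (chr19:20923001-20923300, plus strand) and ZNF57 (chr19:2900678-2900977, plus strand) differed most towards OCI-AML3.
ZNF85: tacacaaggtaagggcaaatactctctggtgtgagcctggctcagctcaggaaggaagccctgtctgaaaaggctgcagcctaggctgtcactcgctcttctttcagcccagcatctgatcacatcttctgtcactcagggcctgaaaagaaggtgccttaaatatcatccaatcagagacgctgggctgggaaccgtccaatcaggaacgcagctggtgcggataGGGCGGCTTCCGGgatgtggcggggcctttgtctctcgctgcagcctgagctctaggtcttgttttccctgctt
ZNF57: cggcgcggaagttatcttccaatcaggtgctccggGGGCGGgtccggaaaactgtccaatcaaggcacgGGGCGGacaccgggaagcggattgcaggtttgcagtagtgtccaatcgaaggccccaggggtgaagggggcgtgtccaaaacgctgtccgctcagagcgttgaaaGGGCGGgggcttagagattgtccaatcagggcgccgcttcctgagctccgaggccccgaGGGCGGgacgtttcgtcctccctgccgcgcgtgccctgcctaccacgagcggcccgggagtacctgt
ZNF254 (chr19:24086937-24087236, plus strand) had the smallest adjusted p of the members for culture time in untreated HL-60.
ZNF254: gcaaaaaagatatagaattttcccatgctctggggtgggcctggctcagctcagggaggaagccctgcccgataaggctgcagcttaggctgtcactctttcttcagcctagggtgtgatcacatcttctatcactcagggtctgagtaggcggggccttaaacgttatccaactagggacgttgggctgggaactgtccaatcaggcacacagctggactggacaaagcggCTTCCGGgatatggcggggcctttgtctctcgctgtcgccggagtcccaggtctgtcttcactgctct
CTTCCGG begins at base -18 from the gene start in both ZNF85 and ZNF254, and in ZNF85 a GC box adjoins it. ZNF57 holds 4 GC boxes and no CCGGAAG.

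The signal of the members spanned most of the scale. The bounds of tertiles over all genes were log2 means of 4.30 and 7.37 over the 23 arrays, and 35 members fell in the low tertile, 150 in the middle and 44 in the high tertile. Probe sets differ in how well they bind, so these tertiles order signals and not amounts of RNA. ZNF146, which consists of fingers without a KRAB domain, had the highest mean signal (10.14), followed by ZNF317 (9.50), ZNF121 (9.50), ZNF100 (9.37) and ZNF253 (9.14). ZNF471 had the lowest (2.01), next to ZNF433, ZNF556, ZNF132 and ZNF846. The members ranged from 1.99 to 10.21 in untreated HL-60, with a median of 6.47, and from 1.85 to 10.04 in untreated OCI-AML3, with a median of 6.05.

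In HL-60 treated for 30 min, most members lay slightly above the untreated level and none rose past the threshold. A differentially expressed gene (DEG) had an unadjusted p of less than 0.01 in limma and at least a 1.5-fold change. Of the 229 members, 141 (61.6%) had a log2 fold change above 0, against 46.8% of all probe sets, with a median of 0.046 against -0.013. The median of the members on an array was 6.37, 6.44 and 6.38 in CIGB-300-treated HL-60 and 6.27, 6.39 and 6.33 in untreated HL-60, and these ranges overlap. The share above 0 was 40%, 61.3% and 79.5% in the low, middle and high tertile, against 45.9%, 48.3% and 46.1% of all probe sets, so it climbed with signal among the members. The changes were small, since 224 of 229 members stayed within 1.5-fold. The treated arrays lay wholly above the untreated ones for 24 members (10.5%), against 5.68% of all probe sets, and wholly below for 3 (1.31%), against 6.74%. DEGs were 1 member, beside 0.877% of all probe sets (0.312% as lower DEGs). By limma, 0 members had an adjusted p under 0.05, beside 0.345% of all probe sets, and 8 (3.49%) had an unadjusted p under 0.05, beside 6.29%.

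The single DEG was ZNF615. Its log2 values were 5.39, 5.90 and 6.21 in HL-60 with CIGB-300 at 30 min and 6.50, 6.51 and 6.39 in untreated HL-60, so that all treated arrays were lower and spread more widely. The log2 fold change was -0.63 ± 0.17, adjusted p = 0.196 by limma (SE, n = 3 each). It was no longer a DEG without treated replicate 1 (-0.41). At 3 h the gene had 6.38, 6.43 and 6.29 with CIGB-300 and 6.58, 6.43 and 6.44 without, and was not a DEG.

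**Figure D1:**
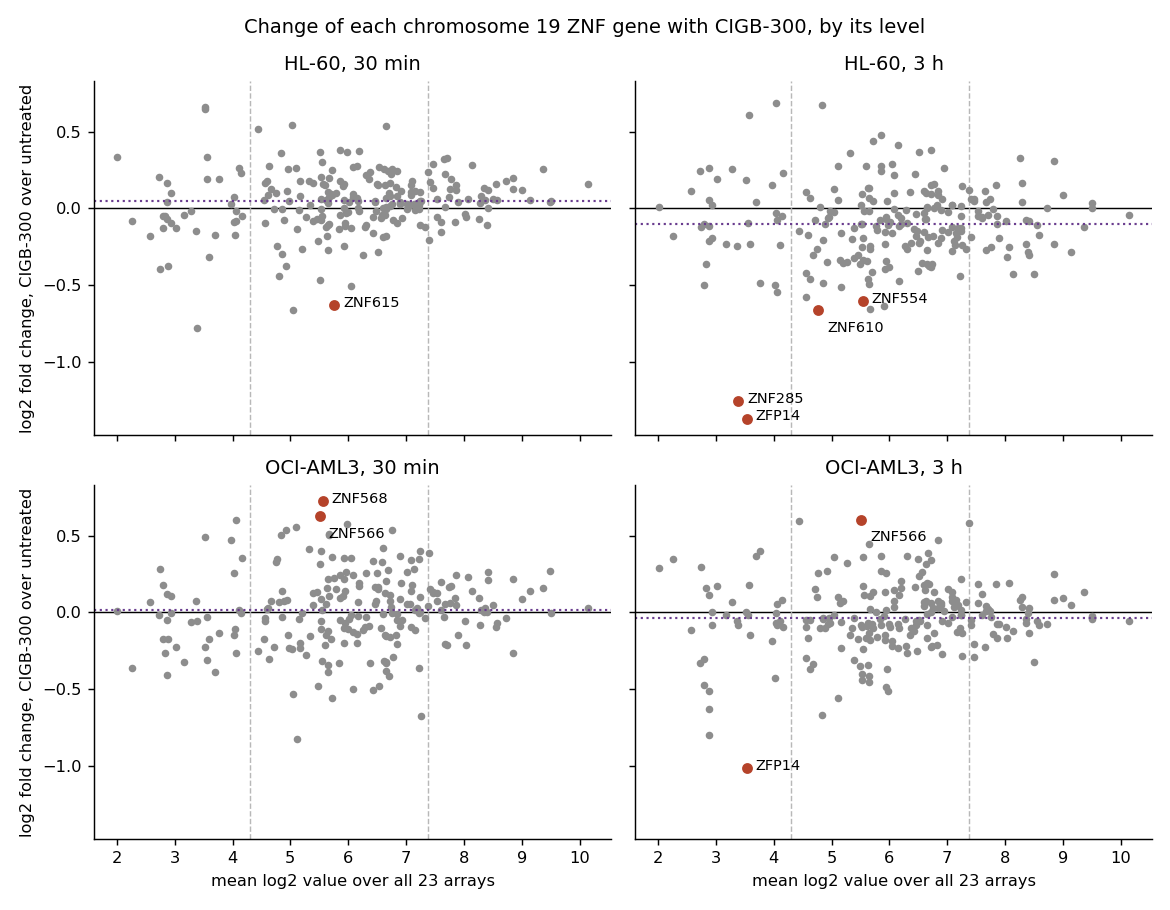
Log2 fold change of each of the 229 genes in the 4 comparisons of CIGB-300 with untreated cells (y) against its mean log2 value over the 23 arrays (x). Red points are DEGs, dashed vertical lines bound the tertiles, and the dotted line is the median over the genes, which lies above 0 in HL-60 at 30 min (0.046) and below 0 in HL-60 at 3 h (-0.101).

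At 3 h the direction in HL-60 was the other way. A log2 fold change above 0 was found for 75 members (32.8%), against 45% of all probe sets, and 154 were below 0. The median was -0.101, against -0.029. The median of the members on an array was 6.42, 6.47 and 6.45 with CIGB-300 and 6.55, 6.64 and 6.52 in untreated HL-60, with no overlap. The share above 0 was 40%, 30% and 36.4% in the low, middle and high tertile, against 49.7%, 45% and 39.6% of all probe sets, so that in the high tertile the members stood near all others. The treated arrays lay wholly below the untreated ones for 30 members (13.1%), against 12.6% of all probe sets, and wholly above for 10 (4.37%), against 8.89%. DEGs were 4 members (1.75%), all lower, beside 3.87% of all probe sets (1.79% as lower DEGs). At an adjusted p under 0.05, 2 members were lower, beside 2.95% of all probe sets, and 1 higher, beside 2.62%.

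The member that fell most in HL-60 at 3 h was ZFP14, a gene of the low tertile. Its log2 values were 2.60, 3.92 and 3.62 with CIGB-300 and 4.67, 4.82 and 4.77 in untreated HL-60. All treated values lay below the untreated ones, and the untreated arrays stood close together. The log2 fold change was -1.37 ± 0.33, adjusted p = 0.0163 by limma (SE), and ZFP14 remained a DEG when any 1 array of the comparison was left out (-1.64 to -0.98). The values lie under the median signal of these arrays, and detection above background was not tested.

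The other 3 DEGs of HL-60 at 3 h had adjusted p-values of 0.0737 to 0.104 by limma. ZNF285 had 4.41, 3.17 and 3.69 with CIGB-300 and 4.06, 5.86 and 5.12 without, which overlap (-1.26 ± 0.43). ZNF610 had 5.15, 5.11 and 5.10 with CIGB-300 and 6.03, 5.57 and 5.75 without, with no overlap (-0.66 ± 0.21). ZNF554 had 5.62, 5.28 and 5.22 with CIGB-300 and 5.84, 5.79 and 6.30 without, also with no overlap (-0.60 ± 0.20). Each of these calls ended when single arrays were left out. ZNF285 lost it without treated replicate 2 (-0.96) or 3 (-1.23) or untreated replicate 2 (-0.83) or 3 (-1.20). ZNF610 lost it without treated replicate 1 (-0.68) or 2 (-0.66) or 3 (-0.65) or untreated replicate 1 (-0.54) or 3 (-0.68). ZNF554 lost it without treated replicate 2 (-0.56) or 3 (-0.53) or untreated replicate 3 (-0.44). ZNF175 and ZNF749, chosen after their values were seen, had an adjusted p under 0.05 below the fold limit. For ZNF175, a KRAB gene known as OTK18, the values were 7.24, 7.41 and 7.37 with CIGB-300 and 7.67, 7.80 and 7.89 without (-0.44 ± 0.11, adjusted p = 0.0178 by limma). ZNF749 had 6.79, 6.88 and 6.98 with CIGB-300 and 6.49, 6.51 and 6.51 without (0.38 ± 0.10, adjusted p = 0.026 by limma), the opposite direction.

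**Figure D2:**
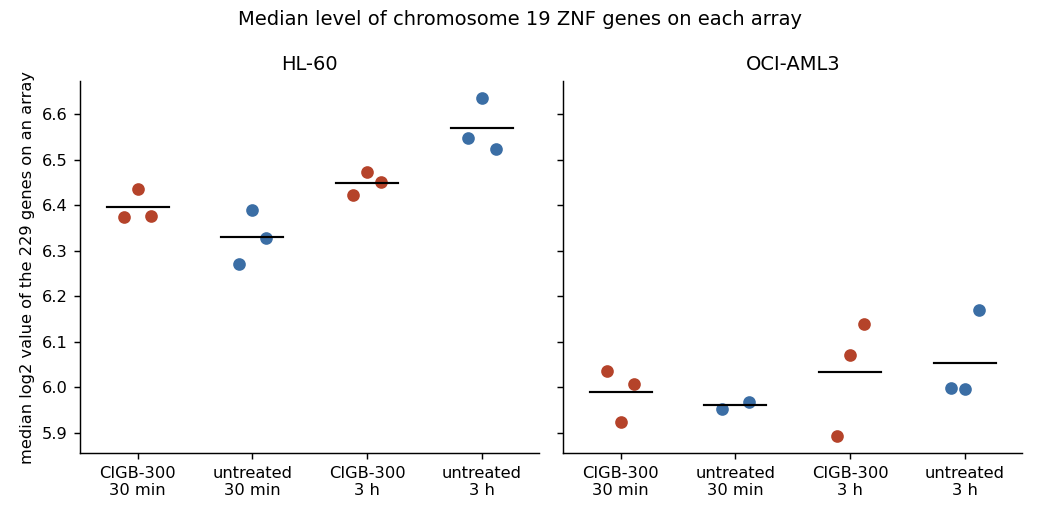
Median log2 value of the 229 genes on each array (y) by group (x), with red points for CIGB-300, blue points for untreated cells and a bar for the mean of a group. In HL-60 at 3 h the treated arrays (6.42, 6.47 and 6.45) lie below the untreated ones (6.55, 6.64 and 6.52), and in OCI-AML3 the groups of each time overlap.

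In OCI-AML3 at 30 min the members departed little from all probe sets. A log2 fold change above 0 was found for 122 (53.3%), against 49.1%, with a median of 0.017 against -0.004. The median of the members on an array was 6.04, 5.92 and 6.01 with CIGB-300 and 5.95 and 5.97 without, which overlap. Shares above 0 were 37.1%, 51.3% and 72.7% in the low, middle and high tertile, against 47.6%, 49.9% and 50% of all probe sets, again with a climb. DEGs were 2 members, both higher, beside 1.07% of all probe sets (0.611% as higher DEGs). By limma, 0 members had an adjusted p under 0.05, beside 0.182% of all probe sets, and 19 (8.3%) had an unadjusted p under 0.05, beside 6.56%.

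ZNF568, whose mouse counterpart represses a placental transcript of Igf2, had 4.85, 4.53 and 5.11 in OCI-AML3 with CIGB-300 at 30 min and 3.99 and 4.21 without, with no overlap (0.73 ± 0.21, adjusted p = 0.39 by limma). ZNF566 had 5.32, 5.62 and 5.48 with CIGB-300 and 4.91 and 4.78 without, also with no overlap (0.63 ± 0.22, adjusted p = 0.532 by limma). ZNF568 lost its call without treated replicate 3 (0.59) or untreated replicate 2 (0.62). ZNF566 lost it without treated replicate 2 (0.55) or 3 (0.63) or untreated replicate 2 (0.69) or 3 (0.56).

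At 3 h in OCI-AML3, 99 members (43.2%) were above 0, against 50.1% of all probe sets, with a median of -0.038 against 0.001. The median of the members on an array was 5.89, 6.07 and 6.14 with CIGB-300 and 5.998, 5.997 and 6.17 without, and the groups overlap. The median fold change turned to 0.0101 without treated replicate 1 and to 0.00708 without untreated replicate 3, so its direction rests on those arrays. By signal, 40%, 44% and 43.2% in the low, middle and high tertile were above 0, against 54.3%, 50.6% and 45% of all probe sets. DEGs were 1 higher and 1 lower member, beside 1.6% of all probe sets (1.08% higher and 0.522% lower).

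ZNF566 was higher again, with 5.53, 5.43 and 5.59 in OCI-AML3 with CIGB-300 at 3 h and 4.74, 5.02 and 4.96 without (0.60 ± 0.19, adjusted p = 0.196 by limma). ZFP14 was lower again, with 2.84, 3.72 and 2.76 with CIGB-300 and 4.26, 3.85 and 4.27 without (-1.02 ± 0.33, adjusted p = 0.202 by limma). In neither gene did the groups overlap. ZNF566 lost its call without treated replicate 1 (0.60) or 3 (0.57) or untreated replicate 1 (0.52) or 3 (0.63). ZFP14 lost it without treated replicate 1 (-0.88) or 3 (-0.84) or untreated replicate 1 (-0.95) or 3 (-0.94). ZNF551, chosen after its values were seen, missed the fold limit and was the 1 member with an adjusted p under 0.05, beside 0.974% of all probe sets. It had 6.68, 7.16 and 6.80 with CIGB-300 and 6.04, 6.26 and 6.58 without (0.58 ± 0.14, adjusted p = 0.0491 by limma).

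Over the 4 comparisons, 19 members were above 0 in 0 of them, 58 in 1, 89 in 2, 51 in 3 and 12 in all 4. These are 8.3%, 25.3%, 38.9%, 22.3% and 5.24% of the members, against 8.26%, 27.9%, 34.8%, 22.6% and 6.42% of all probe sets. ZFP14 and ZNF566 (0.873%) were DEGs in 2 comparisons, against 0.555% of all probe sets, and 222 members (96.9%) in none, against 93.6%. In HL-60, 89 members (38.9%) were above 0 at 30 min and below 0 at 3 h, against 24.1% of all probe sets, and 23 (10%) had the opposite order, against 22.3%. In OCI-AML3 these were 70 (30.6%), against 25.8%, and 47 (20.5%), against 26.9%.

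Whether the effect differed between times was tested for each gene. ZFP14 was the 1 member with an adjusted p under 0.05 in HL-60, beside 1.49% of all probe sets. Its effect at 3 h minus that at 30 min was -2.02 ± 0.46, adjusted p = 0.0296 by limma (SE). At 30 min its log2 values were 4.19, 3.49 and 4.45 in HL-60 with CIGB-300 and 3.60, 3.05 and 3.51 without, which overlap. In OCI-AML3 the same difference was -1.51 ± 0.49, adjusted p = 0.283 by limma, and 0 members passed an adjusted p of 0.05 there, beside 0.0699% of all probe sets, with 24 (10.5%) at an unadjusted p under 0.05, beside 9.81%. Over the members of HL-60 the difference had a median of -0.157, with 64 of 229 (27.9%) above 0, against 47.7% of all probe sets. In OCI-AML3 the median was -0.034, with 97 (42.4%) above 0, against 50.6%. DEG thresholds were passed by 3 members in HL-60, beside 3.24% of all probe sets, and by 5 in OCI-AML3, beside 2.18%. The 3 of HL-60 were ZFP14, ZNF382 (-0.72 ± 0.19, adjusted p = 0.071 by limma) and ZNF888 (-0.62 ± 0.20, adjusted p = 0.162 by limma), all with a lower effect at 3 h.

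The effect in HL-60 minus that in OCI-AML3 was above 0 for 124 members (54.1%) at 30 min, against 49.1% of all probe sets, and for 86 (37.6%) at 3 h, against 45.5%. It passed the DEG thresholds for 5 members at 30 min, beside 1.39% of all probe sets, and for 5 at 3 h, beside 2.98%. By limma, 0 members had an adjusted p under 0.05 at either time, beside 0.0746% and 1.24% of all probe sets, with 13 and 19 (5.68% and 8.3%) at an unadjusted p under 0.05, beside 7.02% and 11.1%.

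**Figure D3:**
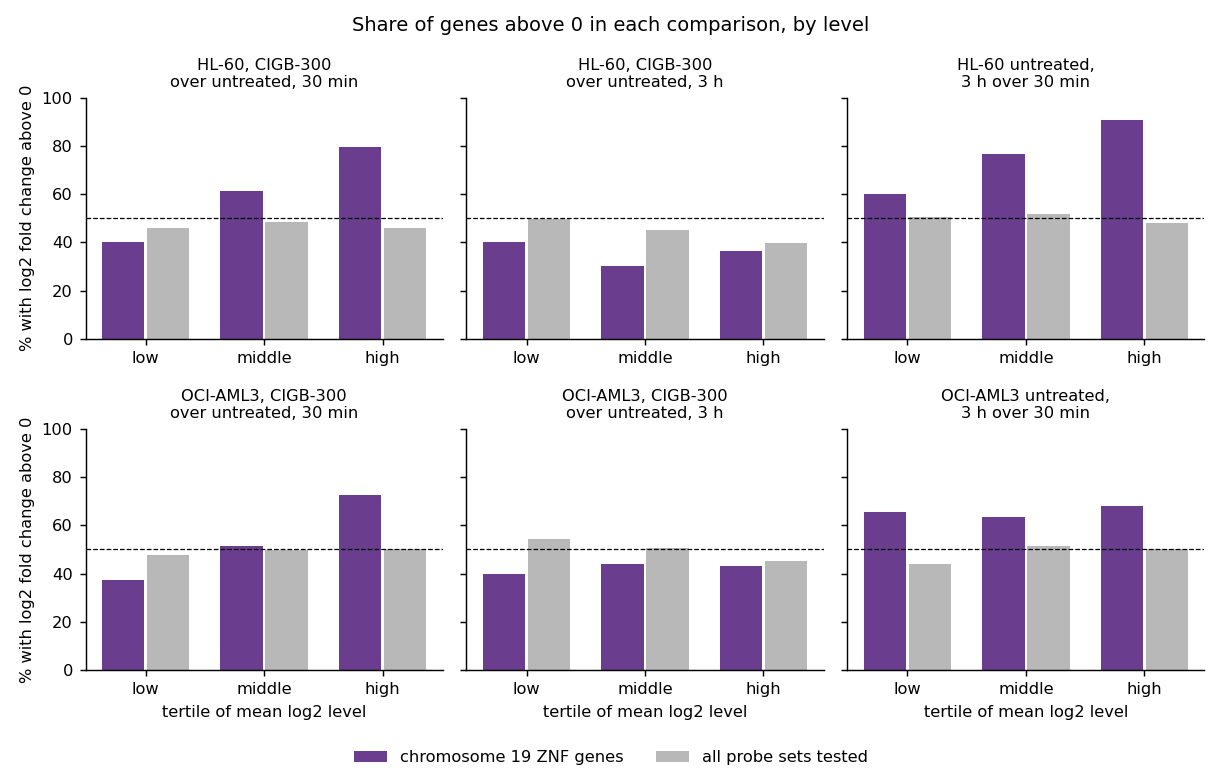
Percent of the 229 genes (purple) and of all 21448 probe sets (gray) with a log2 fold change above 0 (y), by tertile of mean signal (x), for CIGB-300 over untreated at each time and for untreated cells at 3 h over 30 min. The dashed line marks 50%, and in HL-60 the genes climb with signal at 30 min (40%, 61.3% and 79.5%) and with culture time (60%, 76.7% and 90.9%).

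Untreated cells also differed between the times, and these comparisons share their arrays with those of the treatment. In untreated HL-60, 176 members (76.9%) were above 0 at 3 h over 30 min, against 50.2% of all probe sets, with a median of 0.188 against 0.001. The share above 0 was 60%, 76.7% and 90.9% in the low, middle and high tertile (40 of 44 in the last), against 50.5%, 52% and 47.9% of all probe sets. The median of the members on an array was 6.55, 6.64 and 6.52 at 3 h and 6.27, 6.39 and 6.33 at 30 min, with no overlap. All 3 h arrays lay above the 30 min arrays for 65 members (28.4%), against 9.49% of all probe sets, and all below for 8 (3.49%), against 7.99%. DEGs were 3 members (1.31%), all higher, beside 1.5% of all probe sets (0.974% as higher DEGs). An adjusted p under 0.05 was found for 5 members (2.18%), beside 0.914% of all probe sets.

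ZNF254, cloned from bone marrow, had 8.32, 8.73 and 8.77 in untreated HL-60 at 3 h and 7.80, 7.89 and 7.85 at 30 min, with no overlap (0.76 ± 0.13, adjusted p = 0.00634 by limma). ZFP14 had 4.67, 4.82 and 4.77 at 3 h and 3.60, 3.05 and 3.51 at 30 min, with no overlap (1.37 ± 0.33, adjusted p = 0.0562 by limma). Both calls held without any 1 array of the comparison. ZNF554 had 5.84, 5.79 and 6.30 at 3 h and 5.50, 4.84 and 5.34 at 30 min (0.75 ± 0.20, adjusted p = 0.0829 by limma), and lost its call without 30 min replicate 2 (0.56) or 3 h replicate 3 (0.59). ZNF100, ZNF253, ZNF175 and ZNF557 completed the count of 5, with adjusted p-values of 0.0277 to 0.0487 by limma and log2 fold changes of 0.47 to 0.53, short of the fold limit. In none of these 4 genes did the arrays of the times overlap.

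In untreated OCI-AML3, 148 members (64.6%) were above 0 at 3 h over 30 min, against 48.5% of all probe sets, with a median of 0.087 against -0.009. Of the members, 65.7%, 63.3% and 68.2% in the low, middle and high tertile were above 0, against 44.1%, 51.6% and 50.1% of all probe sets, with no steady climb. All 3 h arrays lay above the 30 min arrays for 58 members (25.3%), against 14.2% of all probe sets, and all below for 24 (10.5%), against 14.5%. DEGs were 10 members (4.37%), beside 2.01% of all probe sets. Of these, 9 were higher, beside 1.17%, and 1 lower, beside 0.835%.

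ZFP14 had 4.26, 3.85 and 4.27 in untreated OCI-AML3 at 3 h and 2.29 and 2.25 at 30 min (1.86 ± 0.36, adjusted p = 0.022 by limma), and it had the highest fitted change of the members. Its 30 min values lie near the bottom of the scale, so the size of this change is uncertain. ZNF223 had 5.41, 5.43 and 5.70 at 3 h and 4.70 and 4.04 at 30 min (1.14 ± 0.23, adjusted p = 0.029 by limma). ZNF71 had 6.94, 7.08 and 7.08 at 3 h and 6.28 and 6.23 at 30 min (0.78 ± 0.16, adjusted p = 0.0299 by limma). For these 3 genes the times did not overlap and the call held without any 1 array of the comparison, and they were the members with an adjusted p under 0.05, beside 0.779% of all probe sets. The 30 min level rests on 2 arrays.

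The remaining 7 DEGs had adjusted p-values of 0.061 to 0.216 by limma. ZNF571, ZNF823, ZNF83, ZNF225, ZNF234 and ZNF814 were higher at 3 h, by log2 fold changes of 0.59 to 0.87. ZNF225, ZNF234 and ZNF814 fall outside the rule for named genes and complete the count. ZNF571 lost its call without 30 min replicate 2 (0.77) or 3 h replicate 3 (0.76). ZNF823 lost it without any 1 of the 5 arrays (0.68 to 1.01), and ZNF83 without 30 min replicate 2 (0.72) or 3 (0.95) or 3 h replicate 1 (0.62) or 2 (0.90). ZNF628 was the 1 lower member, with 6.53, 6.80 and 6.17 at 3 h and 7.50 and 6.90 at 30 min (-0.70 ± 0.19, adjusted p = 0.106 by limma). It lost its call without 30 min replicate 2 (-0.40) or 3 h replicate 3 (-0.53). Above 0 in the untreated cells of both lines were 122 members (53.3%), against 27.8% of all probe sets, and below 0 in both were 27 (11.8%), against 29.1%.

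In CIGB-300-treated HL-60 at 3 h over 30 min, 120 members (52.4%) were above 0, against 48.9% of all probe sets, with a median of 0.015 against -0.006. ZNF417, which represses endogenous retroviruses of the HERV-K group in human cells, was the 1 DEG, beside 4.21% of all probe sets (2.24% as higher DEGs). It had 8.86, 8.58 and 8.92 in treated HL-60 at 3 h and 8.27, 8.12 and 8.19 at 30 min, with no overlap (0.59 ± 0.10, adjusted p = 0.000765 by limma). It fell under the fold limit without 30 min replicate 2 (0.56) or 3 h replicate 1 (0.56) or 3 (0.52). Without the fold limit, 7 members were higher at an adjusted p under 0.05, beside 3.21% of all probe sets, while 1 was lower, beside 3.59%.

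In CIGB-300-treated OCI-AML3, 140 members (61.1%) were above 0 at 3 h over 30 min, against 50.8% of all probe sets, with a median of 0.056 against 0.004. DEGs were 5 members, beside 2.63% of all probe sets, of which 3 were higher, beside 1.51%, and 2 lower, beside 1.12%. ZFP30 had 5.93, 6.05 and 5.98 at 3 h and 5.54, 5.23 and 4.83 at 30 min (0.79 ± 0.14, adjusted p = 0.00468 by limma). ZNF792 had 4.74, 5.67 and 4.98 at 3 h and 4.28, 3.72 and 3.17 at 30 min (1.40 ± 0.37, adjusted p = 0.0389 by limma). ZNF180 had 5.93, 5.73 and 5.85 at 3 h and 5.11, 5.01 and 5.50 at 30 min (0.63 ± 0.17, adjusted p = 0.05 by limma). All 3 were higher on every 3 h array. Lower on every 3 h array was ZNF229, with 3.16, 2.90 and 2.25 at 3 h and 4.15, 3.70 and 3.76 at 30 min (-1.10 ± 0.26, adjusted p = 0.023 by limma). The same held for ZNF134, with 7.57, 7.69 and 7.88 at 3 h and 8.27, 8.13 and 8.57 at 30 min (-0.61 ± 0.13, adjusted p = 0.0128 by limma). ZFP30 and ZNF229 kept the call without any 1 array of the comparison. ZNF792 lost it without 30 min replicate 3 (1.13) or 3 h replicate 2 (1.14), ZNF134 without 30 min replicate 3 (-0.49) or 3 h replicate 1 (-0.54), and ZNF180 without 30 min replicate 1 (0.58) or 2 (0.53) or 3 h replicate 1 (0.58).

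**Figure D4:**
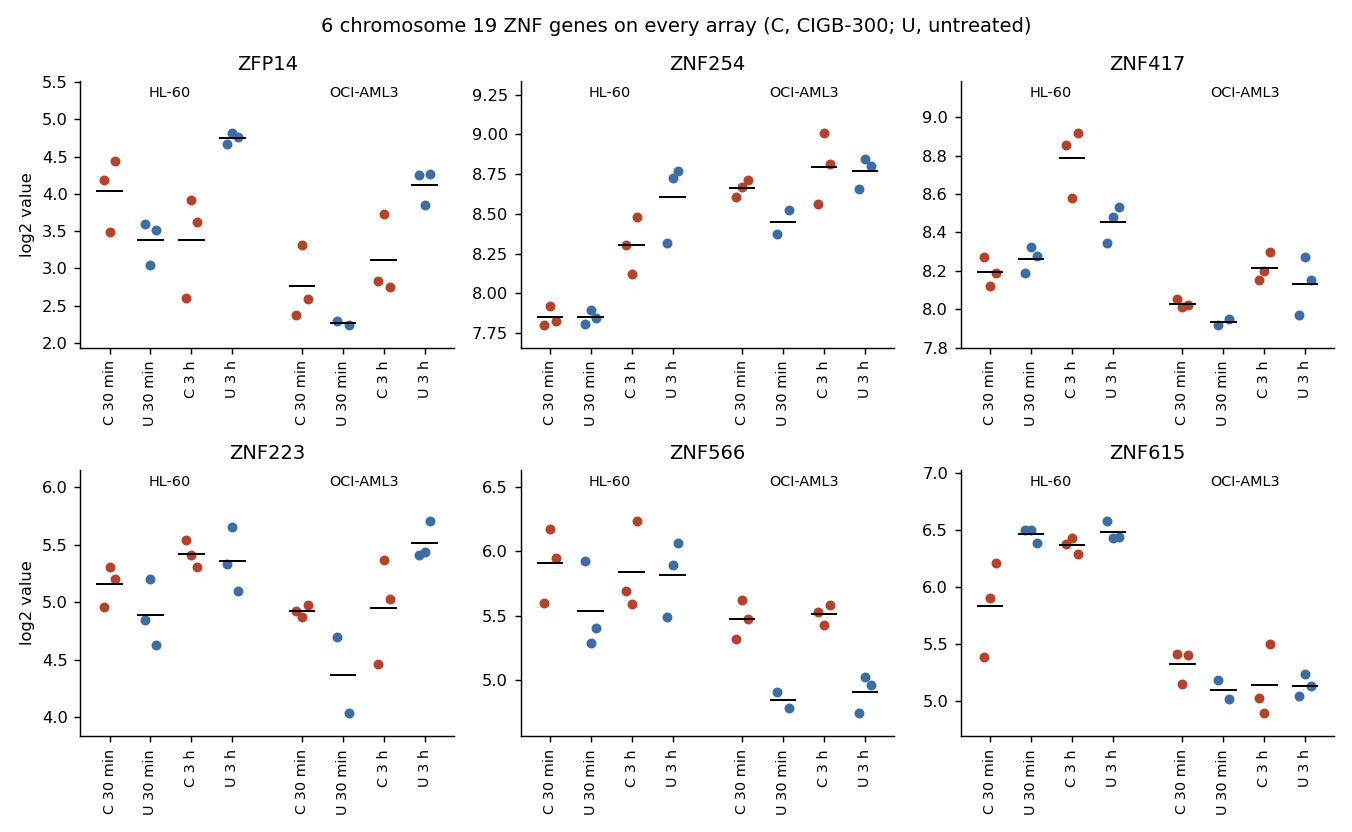
Log2 value on every array (y) of ZFP14, ZNF254, ZNF417, ZNF223, ZNF566 and ZNF615, by group (x), with red points for CIGB-300 (C), blue points for untreated cells (U) and a bar for the mean. At 3 h, ZFP14 stands at 2.60 to 3.92 with CIGB-300 and 4.67 to 4.82 without in HL-60, and at 2.76 to 3.72 with CIGB-300 and 3.85 to 4.27 without in OCI-AML3.

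ZFP28 and ZFP82 were DEGs in none of the 8 comparisons of treatment and time. ZFP28 had 5.49, 5.49 and 5.74 in HL-60 with CIGB-300 at 3 h and 6.37, 5.71 and 5.64 without, which overlap. ZFP82 had 5.45, 4.82 and 5.43 with CIGB-300 and 5.56, 5.63 and 5.30 without, which also overlap.

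The same shares were taken over ZNF genes of other chromosomes and over the other genes of chromosome 19, without a test of the differences. In untreated HL-60 at 3 h over 30 min, 76.9% of the members were above 0, against 68.6% of the 223 ZNF genes on other chromosomes and 40.4% of the 1027 other chromosome 19 genes. In untreated OCI-AML3 the shares in this order were 64.6%, 62.3% and 42.7%. For CIGB-300 in HL-60 they were 32.8%, 33.2% and 45.5% at 3 h, and 61.6%, 53.4% and 44% at 30 min. For CIGB-300 in OCI-AML3 they were 43.2%, 48.9% and 53.8% at 3 h, and 53.3%, 47.5% and 41.6% at 30 min. These are descriptions on the same arrays, and genes are not replicates.

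The partners of the KRAB domain were measured on the same arrays. Of 29 listed genes of TRIM28, SETDB1, heterochromatin protein 1, the NuRD and HUSH complexes, DNA methylation and related factors, 27 had a probe set of their own. By limma, 0 of the 27 were DEGs in each of the 4 comparisons with CIGB-300. At an unadjusted p under 0.05 there were 0 and 8 of them in HL-60 at 30 min and 3 h, beside 6.29% and 17.7% of all probe sets, and 2 and 3 in OCI-AML3, beside 6.56% and 11.4%. With an adjusted p under 0.05, 2 were lower in HL-60 at 3 h, beside 2.95% of all probe sets, 0 were higher, and 0 passed in the other 3 comparisons with CIGB-300. These were ATF7IP, a partner of SETDB1 (-0.41 ± 0.10, adjusted p = 0.0172 by limma), and UHRF1, which guides maintenance of DNA methylation (-0.37 ± 0.10, adjusted p = 0.0273 by limma). TRIM28 itself had a log2 fold change of -0.26 ± 0.11, adjusted p = 0.207 by limma, and SETDB1 one of -0.35 ± 0.11, adjusted p = 0.0678 by limma. For 3 h over 30 min, 0 were DEGs by limma in untreated HL-60, untreated OCI-AML3 and treated OCI-AML3, with 4, 2 and 3 at an unadjusted p under 0.05, beside 11.6%, 11.6% and 16.7% of all probe sets. In treated HL-60 the 1 DEG was EHMT2, a histone methyltransferase for H3K9, which fell (-0.59 ± 0.11, adjusted p = 0.00161 by limma), beside 1.97% of all probe sets. UHRF1, ATF7IP and TASOR, a HUSH subunit, were also lower there at an adjusted p under 0.05, with log2 fold changes of -0.52, -0.41 and -0.46. That threshold was passed as lower by 3.59% of all probe sets. Between the untreated lines, 3 of the 27 were higher DEGs in HL-60 and 5 lower, beside 11.8% and 13.1% of all probe sets. An adjusted p under 0.05 was reached by 7 that were higher and 10 that were lower, beside 24.8% and 21.6%.

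The wider contrast lay between the lines themselves. In untreated cells, with both times averaged, 127 members passed an adjusted p of 0.05 as higher in HL-60 than in OCI-AML3 (55.5%, against 24.8% of all probe sets) and 23 as lower (10%, against 21.6%). The median log2 fold change of HL-60 over OCI-AML3 was 0.356, against 0.067 over all probe sets, and 171 members (74.7%) were above 0, against 57.4%. DEGs were 90 members (39.3%), beside 24.9% of all probe sets. Of these, 74 were higher, beside 11.8%, and 16 lower, beside 13.1%. By signal, 60%, 72% and 95.5% in the low, middle and high tertile were above 0 (42 of 44 in the last), against 65.3%, 53.3% and 53% of all probe sets. At least 8-fold higher in HL-60 were 8 members (3.49%), against 0.96% of all probe sets, and at least 8-fold lower 3 (1.31%), against 1.82%. Of the 223 ZNF genes on other chromosomes, 72 passed the adjusted threshold as higher and 51 as lower, beside the same 24.8% and 21.6% of all probe sets. Differences of line and of culture cannot be told apart.

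The members named next were chosen after their values were seen, as the extremes of this contrast. ZNF829 had 6.86, 6.74 and 6.84 at 30 min and 6.89, 6.69 and 6.46 at 3 h in untreated HL-60, against 2.94 and 2.41 at 30 min and 2.31, 2.47 and 2.48 at 3 h in untreated OCI-AML3. The fitted log2 fold change was 4.20 ± 0.12, adjusted p = 3.42e-16 by limma. In OCI-AML3 the probe set stood level with that of MS4A1, near the bottom of the scale, so the size of this change is at most a lower bound and its rank among the members is not settled. ZNF814 had 9.07 to 9.41 in untreated HL-60 and 4.72 to 5.64 in untreated OCI-AML3 (3.92 ± 0.09, adjusted p = 5.43e-17 by limma). ZNF667, ZNF256, ZNF772, ZNF160, ZNF841 and ZNF329 followed at 3.13 to 3.45. Of these, ZNF256 was cloned from bone marrow and ZNF160 is a KRAB repressor of TLR4. In each of these 8 genes every untreated HL-60 array was above every untreated OCI-AML3 array.

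On the other side stood ZNF85, with 3.68 to 5.15 in untreated HL-60 and 7.86 to 8.40 in untreated OCI-AML3 (-3.82 ± 0.19, adjusted p = 2.64e-12 by limma). ZNF57 had 3.98 to 5.07 in untreated HL-60 and 7.75 to 8.11 in untreated OCI-AML3 (-3.62 ± 0.16, adjusted p = 4.19e-13 by limma). ZNF358 followed at -3.07 ± 0.13, adjusted p = 3.13e-13 by limma. None of these 11 genes was a DEG with CIGB-300 in either line. With CIGB-300 at either time, ZNF85 had 3.90 to 4.72 in treated HL-60 and 7.78 to 8.20 in treated OCI-AML3. ZNF829 had 6.53 to 7.00 in treated HL-60 and 2.27 to 2.79 in treated OCI-AML3, with no overlap between the lines.

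ZNF91 and ZNF93 were looked up for their known targets and not by the rule. ZNF91, a repressor of SVA elements, had 7.44 to 7.99 in untreated HL-60 and 6.12 to 6.65 in untreated OCI-AML3 (1.41 ± 0.11, adjusted p = 9.89e-10 by limma). ZNF93, a repressor of LINE-1 elements, had 5.11 to 5.96 in untreated HL-60 and 6.10 to 6.33 in untreated OCI-AML3 (-0.71 ± 0.20, adjusted p = 0.00532 by limma), the opposite direction. Neither was a DEG with CIGB-300 at either time.

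**Figure D5:**
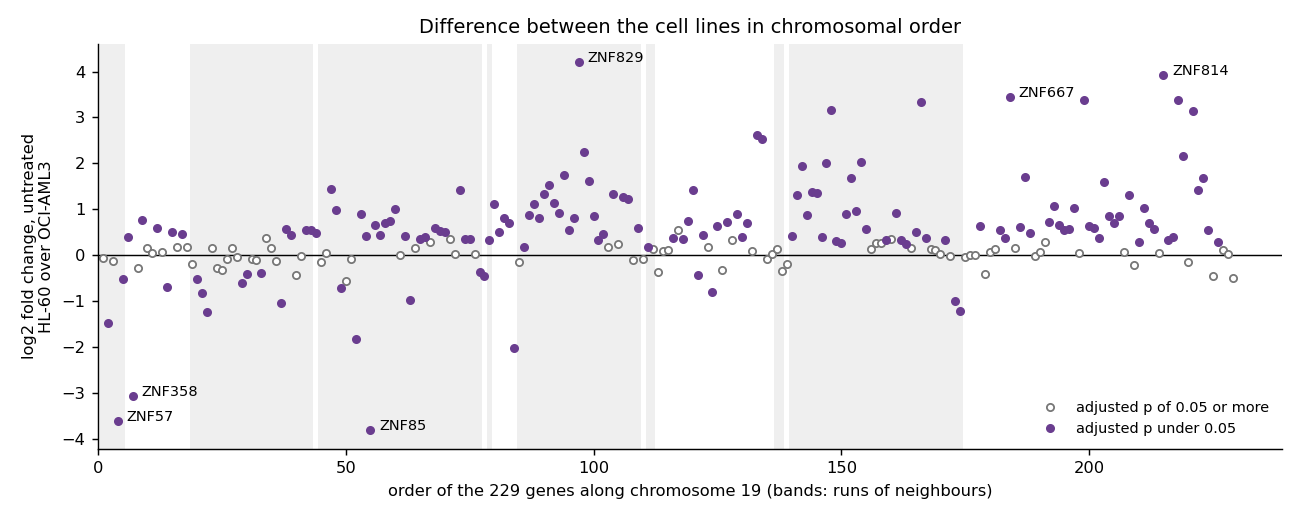
Log2 fold change of untreated HL-60 over untreated OCI-AML3 (y) for the 229 genes in their order along chromosome 19 (x). Filled points have an adjusted p under 0.05 and bands mark runs of neighbors; the run that holds ZNF829 has 21 of 25 genes higher in HL-60 and the last run, with ZNF814, 36 of 55.

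The difference between the lines was counted along the chromosome, with no test of position. Neighbors less than 1 Mb apart by RefSeq were joined into 16 runs, and 9 runs of 5 or more members held 220 of the 229 genes. In the run from ZNF565 to ZNF573, 21 of 25 members were higher in HL-60 at an adjusted p under 0.05 and 0 lower, with a median log2 fold change of 0.87. In the run from ZNF628 to ZNF446, 36 of 55 were higher and 0 lower (median 0.55). The run from ZNF175 to ZNF331 had 24 higher and 2 lower of 35, and the run from ZNF101 to ZNF254 had 18 higher and 5 lower of 33. The run from ZNF653 to ZNF791 had 4 higher and 7 lower of 25, and in that from ZNF554 to ZNF77 0 were higher and 3 of 5 lower. Of the remaining runs of 5 or more, the run from ZNF575 to ZNF296 had 12 higher and 2 lower of 24, the run from ZNF557 to ZNF846 had 5 higher and 2 lower of 13 and the run from ZNF302 to ZNF792 had 4 higher and 1 lower of 5. Neighbors share sequence and are not independent, so these counts describe the runs.

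With CIGB-300 at 3 h in HL-60, 32 of 55 members of the run from ZNF628 to ZNF446 were above 0 (median 0.015). In the run from ZNF565 to ZNF573 it was 4 of 25 (median -0.079), in that from ZNF101 to ZNF254 6 of 33 (median -0.19) and in that from ZNF175 to ZNF331 9 of 35 (median -0.11). In untreated HL-60 at 3 h over 30 min, the 4 runs in this order had 34, 22, 26 and 29 members above 0. For the other runs of 5 or more, the counts with CIGB-300 were 5 of 25 from ZNF653 to ZNF791 (median -0.22) and 7 of 24 from ZNF575 to ZNF296 (median -0.10). They were 5 of 13 from ZNF557 to ZNF846 (median -0.093), 2 of 5 from ZNF554 to ZNF77 (median -0.33) and 3 of 5 from ZNF302 to ZNF792 (median 0.010). Over time in untreated HL-60, these runs in this order had 21, 19, 11, 3 and 3 above 0. Both comparisons use the untreated arrays of 3 h, so they are not independent, and no test was made between runs.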

How the data were processed

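RNA from 8 groups of HL-60 and OCI-AML3 cultures was measured on 23 Clariom S HT arrays. The deposited log2 values came from the authors' RMA background adjustment, quantile normalization across arrays and robust summary of each probe set. Their RMA version is not given in the sources used here. Control features (5741 of 27189) were set aside, which left 21448 probe sets for testing.

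Group means were fitted to the 23 arrays together with limma 3.58.1 in R 4.3.3, using eBayes at its defaults, and p-values were adjusted across the 21448 probe sets after Benjamini and Hochberg. A DEG needed an unadjusted limma p of less than 0.01 and at least 1.5-fold change. Tables, motif searches and figures were made in Python 3.11.15 with pandas 2.3.3, numpy 2.4.6 and matplotlib 3.10.9. Values after ± are SE. The fit was tested on simulated data.

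The members, the lists and the tests were chosen with earlier results of these data known. The rule for named genes took up to 6 members each way with the largest fold change among the DEGs of each of the 8 comparisons, members called in 2 or more comparisons with CIGB-300 or with an adjusted p under 0.05 for a difference of effects, the 5 highest and 5 lowest means and the 4 ZFP genes. Other genes are marked as such. Alternatives varied the arrays fitted, a block for replicate number, variance settings, weights, scaling, filters, thresholds and bins, and each array was left out in turn. For the contrast between the lines, some alternatives were added after seeing the data. Protein features were not analysed here.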

Additional observations from a re-analysis of the deposited data

Results flagged for a closer look

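ZFP14 was marked because its difference between treated and untreated HL-60 changed between times by a test of that change. ZFP14 also rose with culture time in untreated HL-60, as given above, and that rise enters the tested value. Its log2 fold change of treated over untreated cells was -1.37 ± 0.33 at 3 h and 0.65 ± 0.33 at 30 min (SE, n = 3 each), and the difference of -2.02 ± 0.46 had an adjusted p of 0.0296 by limma. It kept the DEG thresholds without any 1 of the 23 arrays, with values of -2.30 to -1.64. OCI-AML3 arrays enter this difference only through the shared spread, so leaving them out kept it at -2.02. Over all alternatives the adjusted p was 0.0175 to 0.0902 by limma, so it did not always stay under 0.05. Its highest log2 value on any array was 4.82, under the median signal of every array.

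The median of the members on an array was marked for HL-60. Every treated array lay above the untreated mean at 30 min and below it at 3 h. Treated arrays had 6.37, 6.44 and 6.38 at 30 min and 6.42, 6.47 and 6.45 at 3 h. Untreated arrays had 6.27, 6.39 and 6.33 at 30 min, which overlap the treated ones, and 6.55, 6.64 and 6.52 at 3 h. The untreated arrays thus changed more between the times than the treated ones. Against the mean of the untreated arrays of the same time, the 3 treated arrays differed by -0.146 to -0.0966 at 3 h (mean -0.12) and by 0.0442 to 0.106 at 30 min (mean 0.0657). This difference was not tested. In OCI-AML3, 2 of 3 treated arrays lay above the untreated mean at 3 h and 2 of 3 at 30 min. The ZNF genes on other chromosomes moved alike in HL-60 at 3 h. Their median on an array was 6.48 to 6.53 with CIGB-300 and 6.61 to 6.65 without, with no overlap. At 30 min it was 6.42 to 6.45 with CIGB-300, inside the range of 6.32 to 6.47 without. The lower median of treated HL-60 at 3 h is thus not particular to the members.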

How the results depend on the processing

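The medians over the members kept their sign in the 8 comparisons under the other fits, normalizations and filters. They moved by less than the SD of array medians within groups (0.0472 in HL-60, 0.0921 in OCI-AML3). That SD exceeds the median itself in HL-60 at 30 min, in treated HL-60 over time and in each OCI-AML3 comparison. For these the limit is a weak one. Counts of DEGs are small and moved, and the cause was not tested. When 1 array was left out, the median for CIGB-300 against untreated cells was 0.0416 to 0.0485 (HL-60, 30 min), -0.124 to -0.0744 (HL-60, 3 h), 0.0124 to 0.0328 (OCI-AML3, 30 min) and -0.0464 to 0.0101 (OCI-AML3, 3 h). For 3 h over 30 min it was 0.149 to 0.218 (untreated HL-60), 0.0874 to 0.114 (untreated OCI-AML3), 0.00604 to 0.049 (treated HL-60) and 0.0372 to 0.0894 (treated OCI-AML3). Counts of DEGs in these 8 comparisons were 0 to 3, 1 to 5, 1 to 4, 0 to 5, 4 to 9, 5 to 14, 1 to 5 and 4 to 8. They moved by over 1.5 times, to the count in parentheses, without treated replicate 1 (0) or 2 (2) or 3 (3) or untreated replicate 2 (2) or 3 (2) of HL-60 at 30 min, treated replicate 3 (1) of HL-60 at 3 h, treated replicate 1 (4) or 2 (1) or 3 (4) or untreated replicate 3 (4) of OCI-AML3 at 30 min, treated replicate 1 (4) or 2 (5) or untreated replicate 1 (0) or 2 (4) of OCI-AML3 at 3 h, 30 min replicate 3 (9) or 3 h replicate 1 (5) or 2 (8) of untreated HL-60, 30 min replicate 2 (5) of untreated OCI-AML3, 30 min replicate 1 (2) or 3 (3) or 3 h replicate 1 (2) or 2 (5) of treated HL-60 and 3 h replicate 3 (8) of treated OCI-AML3. For the differences between times the medians were -0.171 to -0.129 (HL-60) and -0.0595 to -0.0122 (OCI-AML3), with 3 to 6 and 2 to 8 members called, and between lines 0.00703 to 0.045 (30 min) and -0.123 to -0.0558 (3 h), with 1 to 7 and 4 to 6. For untreated HL-60 over OCI-AML3 the median was 0.345 to 0.372, with 89 to 97 called.

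With HL-60 at 30 min and at 3 h first, then OCI-AML3 at 30 min and at 3 h, 1, 4, 2 and 2 members were DEGs. These counts were 0, 1, 0 and 0 with an adjusted p under 0.05 and the fold limit, and 0, 3, 0 and 1 without the fold limit. HL-60 at 30 min had 2 with the arrays of its line alone, and a fold of 1.2 gave 9, 6 and 4 in the later 3. HL-60 at 3 h had 2 after cyclic loess and 1 among the probe sets brighter than the median, OCI-AML3 at 30 min 1 after centring, and OCI-AML3 at 3 h 4 with trend and robust variance and 1 among the brighter probe sets. Over time, untreated HL-60 had 3, or 1 and 5 with an adjusted p with and without the fold limit and 19 at a fold of 1.2, and untreated OCI-AML3 10, or 3 and 3. Treated HL-60 had 1, or 8 with an adjusted p alone, 12 at a fold of 1.2, 3 with trend and robust variance, and 2 each with its line alone, the compared groups alone, array weights, centring and the brighter probe sets. Treated OCI-AML3 had 5, or 3 among the brighter probe sets and 11 at a fold of 1.2. The counts of this section stand without shares of all probe sets under each setting. They show only how the calls depend on the settings, and not whether members were called more often than other genes. With quartiles in place of tertiles, 90.9% of the brightest members were above 0 in HL-60 at 30 min and 100% in untreated HL-60 over time. In the other comparisons the share stayed within the confidence interval (Wilson) of that in the high tertile. The brightest quartile holds fewer members than the high tertile, and shares of all probe sets were not set beside it.

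No block was used in the fit, and whether the replicate numbers pair the samples is not known. Of 22 same-number pairs 0 correlated over 0.1 after group means were removed, although 15 of 23 arrays correlated best with their own number. With a replicate block, treated HL-60 at 3 h over 30 min had 3 members called, against 1 without it, and ZNF83 at an unadjusted p of 0.0101 lost its call in untreated OCI-AML3.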
